A study of Mus musculus with 32 samples.

Results

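Whole muscle of mice with an inducible DUX4 gene was compared with whole muscle of WT mice at 16 weeks, the later of the 2 times at which whole muscle was taken. The libraries were chosen by their labelled group, IDUX.16Weeks (4 libraries) and WT.16Weeks (4 libraries), and make up 8 of the 32 libraries of the series. They are called DUX4 muscle and WT muscle below, and values per library are listed in the order of replicates 1 to 4. Mice of both groups, WT included, received chow with doxycycline, so that no group was without the drug. Whole muscle at 2 weeks (IDUX.2Weeks and WT.2Weeks, 5 libraries each, same chow) was used only to ask whether an effect differed between the times. The series describes DUX4 expression in these mice as chronic and rare. What drives the DUX4 gene, which muscles were taken, the sex of the mice, from when the weeks were counted and whether each library came from its own animal are not stated in the labels. The p-values therefore measure the spread between libraries, which may be technical.

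DUX4 is a transcription factor of the early embryo that binds DNA through a pair of homeodomains and is silent in healthy muscle. Its misexpression in muscle fibres causes facioscapulohumeral dystrophy (FSHD), in which muscle is lost with inflammation, fibrosis and fat replacement. The human protein acts on mouse genes too, but on a set that only partly overlaps the human targets. The gene table has no entry for the human transgene, so DUX4 itself was not analysed here.

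Total counts ran from 6.07 to 19 M in DUX4 muscle and from 6.78 to 19.4 M in WT muscle, with DUX4 replicate 2 and WT replicate 4 the shallowest. The tissue label fits its markers: genes of fast fibres summed to 61919 to 104826 CPM in DUX4 muscle and 148378 to 187014 in WT muscle, and genes of slow fibres to 12632 to 20794 CPM in DUX4 muscle and 15769 to 17436 in WT muscle. CPM are counts per 1000000 counts of a library, scaled by the trimmed mean of M-values (TMM). In a principal component analysis of the 8 libraries the first component, with 46.6% of the variance, held all DUX4 libraries on one side (−72.1 to −38.2) and all WT libraries on the other (50.8 to 65.8). The second component, with 20.2%, set WT replicate 1 (92.6) apart from the other 7 libraries (−37.3 to 7.69). WT replicate 1 held 215 CPM of neutrophil marker transcripts, against 3.62 to 5.44 in the other WT libraries, and 10222 CPM of atrophy and glucocorticoid-induced transcripts. It held only 0.717 CPM of red blood cell transcripts and 380.0 of endothelial ones. WT replicate 4 and DUX4 replicate 3 lay apart on the third component (44.2 and 42.7, 10.3% of the variance), and WT replicate 4 was the only library of the 8 with almost no Xist, the transcript of the inactive X chromosome (1.18 CPM against 156 to 302). Results are therefore given with all 8 libraries and without WT replicates 1 and 4.

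**Figure D1:**
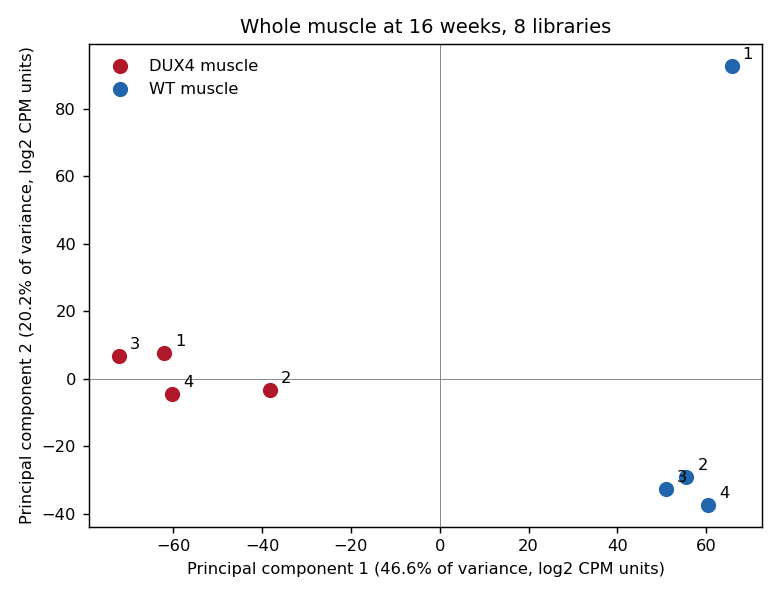
Position of each 16-week whole-muscle library on the first and second principal components of log2 CPM (points, numbered by replicate, coloured by group). DUX4 and WT libraries separate along the first component, and WT replicate 1 stands alone at 92.6 on the second.

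With all libraries 2169 of 15396 genes tested were higher in DUX4 muscle (14.1%) and 1928 were lower (12.5%), at an adjusted p under 0.05 in edgeR's quasi-likelihood test, fitted on the 18 whole-muscle libraries of both times. Genes past this threshold are said to have risen or fallen, or to be called. Without WT replicates 1 and 4, 1893 of 16213 genes rose (11.7%) and 1718 fell (10.6%). Of the 4097 genes called with all libraries, 2813 were called in the same direction without those 2, 1284 were not, and none was called in the opposite direction. A further 798 genes were called only without them. Large rises outnumbered large falls: 1493 genes rose at least 2-fold and 350 fell at least 2-fold. In 3334 of the 4097 called genes every DUX4 library lay on one side of every WT library, as in 4173 of all 15396 genes tested. The calls and this separation rest on the same values. Of the called genes 2512 were called in all 8 refits that left out 1 library.

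All 6 tested genes known to respond to DUX4 in mouse muscle rose (5 without WT replicates 1 and 4), and among them Serpinb6c, which encodes a serine protease inhibitor, moved from near silence. It stood at 18.6, 14.6, 19.4 and 20.2 CPM in the DUX4 libraries and 0.0651, 0.544, 0.227 and 0.168 CPM in the WT libraries. The groups were far apart, and the log2 difference was 6.12 ± 0.72 (SE, n = 4 per group, adjusted p = 2.52e-05). Ilvbl, whose product is an acetolactate synthase-like enzyme, stood at 37.0, 40.1, 52.0 and 41.0 CPM against 7.88, 7.30, 8.15 and 8.92 (2.4 ± 0.18, adjusted p = 1.33e-06). Agtrap, which encodes a protein that binds the type 1 angiotensin receptor, rose less, from 8.70 ± 2.52 to 23.4 ± 7.27 CPM (1.45 ± 0.31), with DUX4 replicate 2 the lowest DUX4 library at 14.6 CPM. The peptide transporter gene Slc15a2 was the member that lost its call without WT replicates 1 and 4 (1.51, adjusted p = 0.104), and in 6 of 8 refits without 1 library.

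Other genes went from almost no transcripts to steady expression in all 4 DUX4 libraries. Tmem92, for a transmembrane protein, was at 21.2, 21.0, 21.5 and 22.6 CPM with DUX4 and 0, 0.155, 0 and 0.168 in WT muscle. The DUX4 libraries differed from each other by little, and the adjusted p was 4.99e-06. WT muscle gave 3 counts of it in all, against 1453 in DUX4 muscle, a ratio of 376 after scaling (95% counting interval 128 to 1826). Aadac, which encodes a lipid-hydrolysing arylacetamide deacetylase of liver and gut, stood at 12.3, 11, 16.6 and 12.9 CPM against 0, 0.0777, 0 and 0 (adjusted p = 1.14e-05, a ratio of 693 with a counting interval of 124 to 27420 on 1 WT count). Aldh3a1, for an aldehyde dehydrogenase of cornea and stomach, stood at 19.4, 11.9, 23.5 and 22.7 CPM against 0, 0.0777, 0.0566 and 0 (adjusted p = 0.00230). P2rx3, for an ATP-gated ion channel known from sensory neurons, was at 44.4 to 75.4 CPM in DUX4 libraries and 0.0566 to 0.466 in WT libraries. All of these genes had groups that did not overlap, and all kept their calls without WT replicates 1 and 4.

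In all, 40 genes had 0 counts in every WT library and at least 3 counts in every DUX4 library, and a single gene had the opposite pattern. Of the 40, 27 were abundant enough to be tested and 27 were called, which the choice of members fixes. Transcripts of 37 were also counted in at least 1 of the 5 DUX4 libraries at 2 weeks, of 24 in all 5. In WT muscle at 2 weeks 22 of the 40 had no count in any of the 5 libraries. The others had counts in at least 1, and Ccl5 in all 5. The set held hormones and receptors of other tissues. Cck, for the gut hormone cholecystokinin, was at 14.3, 4.88, 2.99 and 2.88 CPM, with DUX4 replicate 1 well above the rest. Sstr5, for a somatostatin receptor, was at 3.39, 7.93, 1.14 and 5.08 CPM (at least 15.9-fold higher, taking 3 counts in each WT library as the limit), and the orphan receptor gene Gpr12 at 3.53, 2.59, 2.67 and 2.41 CPM (at least 10.2-fold). Iltifb, a copy of the interleukin-22 gene, was at 5.98, 4.42, 4.51 and 5.55 CPM, while transcripts assigned to its near-identical neighbour Il22 stayed at or below 0.258 CPM in every library. The division of reads between such copies is uncertain. Iltifb, Sstr5 and Gpr12 had no count in any library of sorted CD31+ endothelial or Pdgfra+ fibro-adipogenic cells of the series. Among the members below the level needed for the test were Ifng, the gene for interferon gamma, at 0.377, 0.610, 0.762 and 0.603 CPM, and the chemokine gene Ccl5 at 1.27, 0.458, 0.572 and 0.818 CPM. Of the 40 genes 14 had no count in any sorted library, while Cck had counts in all 3 WT libraries of each sorted cell type.

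**Figure D2:**
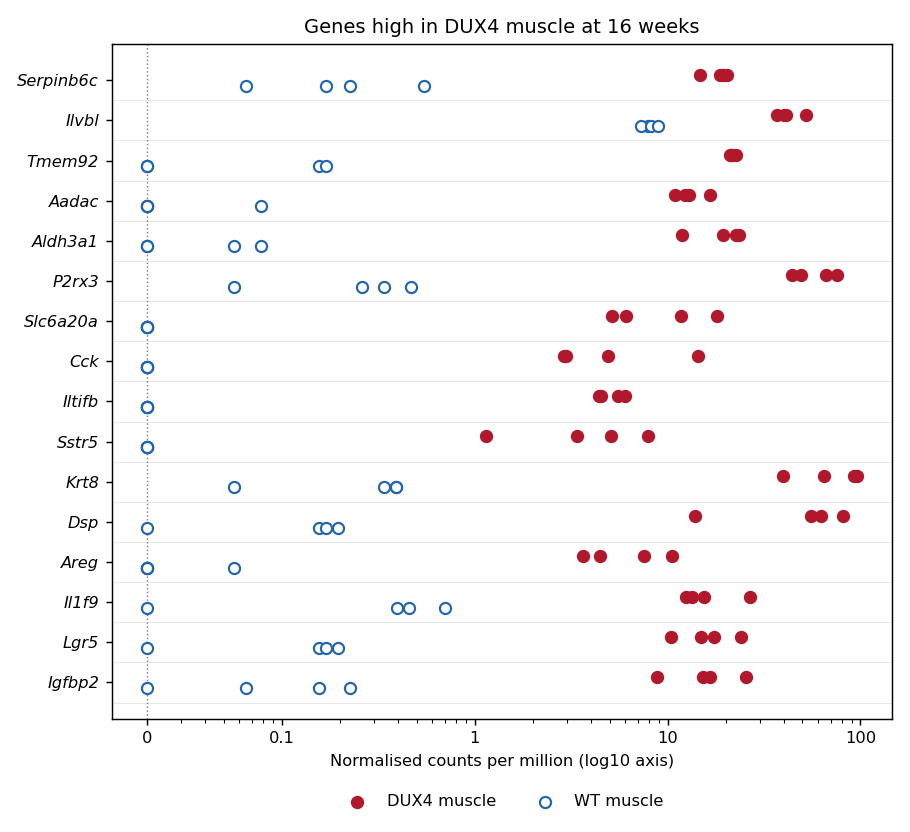
Normalised CPM (log10 axis, with 0 drawn at the left edge) of 16 genes in each 16-week library, DUX4 muscle as filled circles and WT muscle as open circles. Values of the 2 groups do not overlap in any of these genes, and Slc6a20a, Cck, Iltifb and Sstr5 had no counts in WT muscle.

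Several genes of epithelia rose from near 0, a set picked out after its values had been seen. Krt8 and Krt18, which encode the keratin pair of simple epithelia, stood at 95.9, 39.6, 64.7 and 92.6 and at 76.6, 41.9, 47.0 and 51.1 CPM in DUX4 muscle. In WT muscle they were at 0.0566 to 0.391 and 0.283 to 1.18 CPM (log2 differences 8.01 ± 0.87 and 6.41 ± 0.68). Dsp, for the desmosome linker desmoplakin, was at 62.4, 13.9, 55.5 and 81 CPM against 0 to 0.195 (8.37 ± 1.22, adjusted p = 0.000184), lowest in DUX4 replicate 2. The tight junction gene Tjp3 rose by 7.28 ± 0.75, the epithelial transcription factor gene Elf3 by 3.59 ± 0.46, and Ezr, for the membrane-cytoskeleton linker ezrin, by 4.10 ± 0.44. Each of these kept its call without WT replicates 1 and 4 and without any 1 library. Other epithelial genes did not move with them. Of the keratins of skin, Krt5 was at no more than 0.127 CPM and Krt14 at no more than 0.0635 CPM in any DUX4 library (0.168 and 0.336 in WT libraries). Krt1 and Krt15 had no counts in any of the 8. Epcam, an epithelial adhesion gene that is not particular to skin, had counts in 2 libraries of each group, up to 0.318 and 0.505 CPM. Of 5 tested keratinocyte genes 2 rose, Dsp and Sfn, and 4 rose without WT replicates 1 and 4 or without WT replicate 1.

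Among ligands and receptors of the epidermal growth factor (EGF) family more genes rose than fell. These ligands are shed from cell surfaces and signal through the receptors Egfr and Erbb2 to Erbb4. Of 11 tested genes 5 rose (45.45%, against 14.1% of all genes) and 1 fell (9.09%, against 12.5%). Without WT replicates 1 and 4 the counts were 4 and 1, and there were 3 rises without DUX4 replicate 1. Areg, the amphiregulin gene, stood at 7.58, 3.66, 4.45 and 10.5 CPM with DUX4 and 0, 0, 0.0566 and 0 in WT muscle, where 1 count was found in all (adjusted p = 0.000289). Epgn, for the ligand epigen, was at 4.10, 1.22, 0.572 and 0.775 CPM, highest in replicate 1, against 0 to 0.170 (3.76 ± 0.87, adjusted p = 0.00473). The receptor gene Erbb2 rose from 4.02 ± 0.371 to 7.55 ± 1.46 CPM. Egf itself fell, from 34.1 ± 11.5 to 13.5 ± 3.10 CPM (−1.35 ± 0.34, adjusted p = 0.00863), with no overlap between the groups. The ligand genes Hbegf, Btc and Tgfa did not pass the test, with log2 differences of −0.14, 0.05 and 0.58.

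Of cytokines of the interleukin-1, interleukin-6 and interleukin-10 families and their receptors, 5 of 20 tested genes rose and 2 fell. These were 25% and 10% of the list, against 14.1% and 12.5% of all genes. Without WT replicates 1 and 4 the counts were 5 and 1, and no gene fell without DUX4 replicate 3. Il1f9, the gene for interleukin-36 gamma, an alarm cytokine of epithelia, was at 12.4, 15.4, 26.8 and 13.4 CPM in DUX4 muscle and 0.456, 0.699, 0.396 and 0 in WT muscle. Every DUX4 library lay far above every WT library, and the log2 difference was 5.28 ± 0.59 (adjusted p = 1.51e-05). Il20rb, a receptor chain for cytokines of the interleukin-20 group, stood at 66.7, 27.8, 30.2 and 46.9 CPM against 3.32, 1.86, 3.23 and 1.68 (4.04 ± 0.45). Il6 and Il10 reached no more than 0.0471 CPM in any library. Among chemokines 5 of 19 rose and 1 fell (5 and 1 without WT replicates 1 and 4). Cx3cl1, the gene for the membrane-bound chemokine fractalkine, rose from 1.74 ± 0.770 to 15.5 ± 7.66 CPM (3.19 ± 0.59), Cxcl16 from 1.30 ± 0.361 to 3.81 ± 1.98, and the interferon gamma-induced Cxcl9 from 0.833 ± 0.375 to 2.86 ± 1.07. Ccl25, a chemokine of thymus and gut, fell by 1.13 on the log2 scale. Of 13 chemokine receptors 4 rose (2 without WT replicates 1 and 4, 1 without DUX4 replicate 3).

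Interferon-stimulated genes, which cells switch on through STAT and IRF factors after interferon binds its receptors, changed in 1 direction. Of 42 tested, 23 rose and none fell (54.8% against the 14.1% of all genes that rose), with a median log2 difference of 1.08. Without WT replicates 1 and 4 the count was 13. Ifit1, which binds viral RNA, stood at 13.8, 9.76, 32.5 and 8.57 CPM with DUX4 and 4.10, 2.10, 2.32 and 6.90 in WT muscle, highest in DUX4 replicate 3. Igtp, an immunity-related GTPase, was at 23.6, 21.6, 32.8 and 22.4 against 15.6, 8.78, 5.44 and 8.07 CPM (1.40 ± 0.27, adjusted p = 0.00139). Oas1a, which senses double-stranded RNA, was at 0.801, 3.66, 2.48 and 1.98 against 0.391, 0, 0.227 and 0.673 CPM (2.88 ± 0.68, adjusted p = 0.00533), and Irf7, a transcription factor of the response, at 3.67, 5.79, 3.88 and 4.05 against 0.326, 1.32, 2.15 and 1.01 CPM. The groups did not overlap in any of these. For Isg15, a ubiquitin-like modifier, they did (1.98, 1.83, 3.94 and 1.77 against 0.130, 0.699, 0.906 and 1.85 CPM), and its call was lost in 3 refits without 1 library (adjusted p up to 0.115 without DUX4 replicate 3). Stat2, Irf9 and Irf1, which carry the signal, were not called (log2 differences of 0.40, 0.31 and 0.33). Outside the list, Ifitm3, a membrane protein that blocks virus entry, stood at 118, 79.6, 114 and 117 against 11.8, 14.8, 15.7 and 15.0 CPM (2.90 ± 0.28, adjusted p = 4.99e-06).

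Promoter stretches of called interferon and class I genes are shown because they hold matches to the core letters of the element through which interferon acts. The interferon-stimulated response element was searched as its core, GAAA, any 2 bases, GAAA, and in a longer form with a further C, on both strands, from 250 bases before to 50 after the start site in the RefSeq promoter table (GRCm38.p6). Capitals mark core matches, which read TTTC, any 2 bases, TTTC where the match is on the other strand, and overlapping matches run together.
Bst2, chr8:71537562-71537627, minus strand: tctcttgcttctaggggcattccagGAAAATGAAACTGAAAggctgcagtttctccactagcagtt
Ifit1, chr19:34640760-34640838, plus strand: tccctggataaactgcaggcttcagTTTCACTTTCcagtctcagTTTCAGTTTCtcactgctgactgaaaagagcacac
Isg15, chr4:156200850-156200921, minus strand: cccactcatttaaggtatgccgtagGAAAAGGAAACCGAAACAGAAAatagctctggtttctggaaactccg
Oas1a, chr5:120907526-120907570, minus strand: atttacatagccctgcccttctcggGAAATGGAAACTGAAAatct
Igtp, chr11:58199497-58199555, plus strand: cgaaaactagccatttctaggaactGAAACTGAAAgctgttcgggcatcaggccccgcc
B2m, chr2:122147523-122147582, plus strand: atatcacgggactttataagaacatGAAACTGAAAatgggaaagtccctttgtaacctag
H2-T23, chr17:36032791-36032850, minus strand: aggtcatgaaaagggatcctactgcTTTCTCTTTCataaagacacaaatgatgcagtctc

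Of the 23 called interferon-stimulated genes 15 were in the promoter table, and 9 of them held the core (60.0%), 7 the longer form (46.7%). Among list members that were tested and not called, 9 of 16 held the core (56.2%). Of all 27025 promoter entries 3.99% held the core and 0.944% the longer form, and of the promoters of all genes that rose 3.86% held the core. Isg15 had 3 overlapping core matches, between 78 and 57 bases before its start, and Ifit1 had 2, between 104 and 76. A match is a description of these letters only.

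Many genes that present peptides to CD8 T cells rose. Of 24 tested genes of class I antigen presentation 13 rose and none fell (14 without WT replicates 1 and 4), with a median log2 difference of 0.81. B2m, the shared light chain, stood at 100.5, 98.5, 95.8 and 131 CPM in DUX4 muscle and 47.0, 53.1, 59.2 and 56.5 in WT muscle (0.98 ± 0.12, adjusted p = 2.29e-05). The classical heavy chain genes H2-K1 and H2-D1 rose from 49.4 ± 2.52 to 122 ± 10.2 and from 56.1 ± 5.69 to 108 ± 16.1 CPM. The non-classical H2-M3, which presents formylated peptides, changed most, from 1.11, 1.32, 1.13 and 0.505 CPM in the WT libraries to 11.5, 11.6, 8.01 and 10.3 in the DUX4 libraries (3.27 ± 0.35, adjusted p = 1.17e-05). No library of either group overlapped the other in these 4 genes. Tap1, a subunit of the peptide transporter, rose by 0.95 ± 0.23. H2 heavy chain genes are similar in sequence, and the division of reads between them is uncertain. Of the 12 called class I genes with a promoter entry, 2 held the interferon element core, B2m and H2-T23, shown above (16.7%), and 0 held the longer form.

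Of 9 class II genes, which present peptides to CD4 T cells, 6 rose (6 without WT replicates 1 and 4). H2-Aa was at 40.8, 28.1, 22.6 and 45.5 CPM against 9.97, 10.1, 9.97 and 7.91 (1.85 ± 0.40, adjusted p = 0.00331), and H2-Eb1 and the class II regulator Ciita rose by 1.89 ± 0.44 and 1.48 ± 0.41; Ciita lost its call without DUX4 replicate 3 (adjusted p = 0.0531). In whole muscle more cells of a type and more RNA per cell cannot be told apart, here or in the lists that follow. Markers of immune cells moved less evenly. Of 24 macrophage markers 4 rose (16.7%, against 14.1% of all genes). The count was 11 without WT replicates 1 and 4, 18 without WT replicate 1 alone and 1 without DUX4 replicate 4. All 24 had a log2 difference above 0. The median was 1.38 (2.46 without WT replicates 1 and 4), against 0.0136 over all genes tested. The markers summed to 151 to 637 CPM in DUX4 muscle and 53.1 to 359.6 in WT muscle. Aif1, a calcium-binding protein of macrophages, was at 0.753, 0.762, 1.21 and 1.03 against 0.130, 0.0777, 0.170 and 0 CPM (3.0 ± 0.63). Cd68, for a lysosomal protein of macrophages, was at 13.0, 7.78, 17.3 and 38.6 CPM with DUX4 and 25.7, 1.48, 0.963 and 1.68 in WT muscle, and was called only without WT replicates 1 and 4 (4.0, adjusted p = 0.00451). Mmp12 and Gpnmb, genes of lipid-laden and tissue-clearing macrophages, were high in DUX4 replicates 3 and 4 (62.6 and 104 CPM for Mmp12, 87.6 and 184 for Gpnmb) and low in replicates 1 and 2 (1.55 and 0.915, 5.42 and 3.35).

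T and NK cell transcripts were near the limit of detection. Only 1 of the T and NK cell markers, Cd3e, was abundant enough to be tested (0.0942, 0.458, 0.699 and 0.431 against 0, 0.155, 0.963 and 2.02 CPM, adjusted p = 0.635), and the T cell receptor gene Trac and the granule gene Nkg7 were at or near 0 in all 8 libraries. Of 9 B and plasma cell markers 4 rose (3 without WT replicates 1 and 4, 2 without DUX4 replicate 3, 7 without WT replicate 4), including Sdc1, a proteoglycan of plasma cells and epithelia (23.7, 5.18, 7.05 and 10.4 against 1.04, 3.03, 2.44 and 3.03 CPM). Summed, this list overlapped between the groups, at 108 to 214 CPM in DUX4 muscle and 85.7 to 208 in WT muscle. Sdc1 is not particular to plasma cells in this series. It was at 51.5 to 96.5 CPM in libraries of sorted CD31+ cells and 63.9 to 135 CPM in those of sorted Pdgfra+ cells. Of 19 complement genes 3 rose, 15.8% against 14.1% of all genes. The count was 1 without WT replicates 1 and 4, without DUX4 replicates 3 or 4 or without WT replicate 2, and 4 without WT replicate 1. Among the 3 was Cfb of the alternative pathway, at 7.68, 6.56, 3.24 and 6.93 against 1.69, 1.09, 1.98 and 2.02 CPM (1.85 ± 0.49, adjusted p = 0.0104). Of the 19 complement genes 16 had a log2 difference above 0, with a median of 1.03 (0.93 without WT replicates 1 and 4). No mast cell marker was called among 6 tested and no red blood cell gene among 5. In edgeR 0 members of either list had an unadjusted p under 0.05, and DESeq2 and limma voom called 0, while 2 red blood cell genes fell without WT replicate 1.

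**Figure D3:**
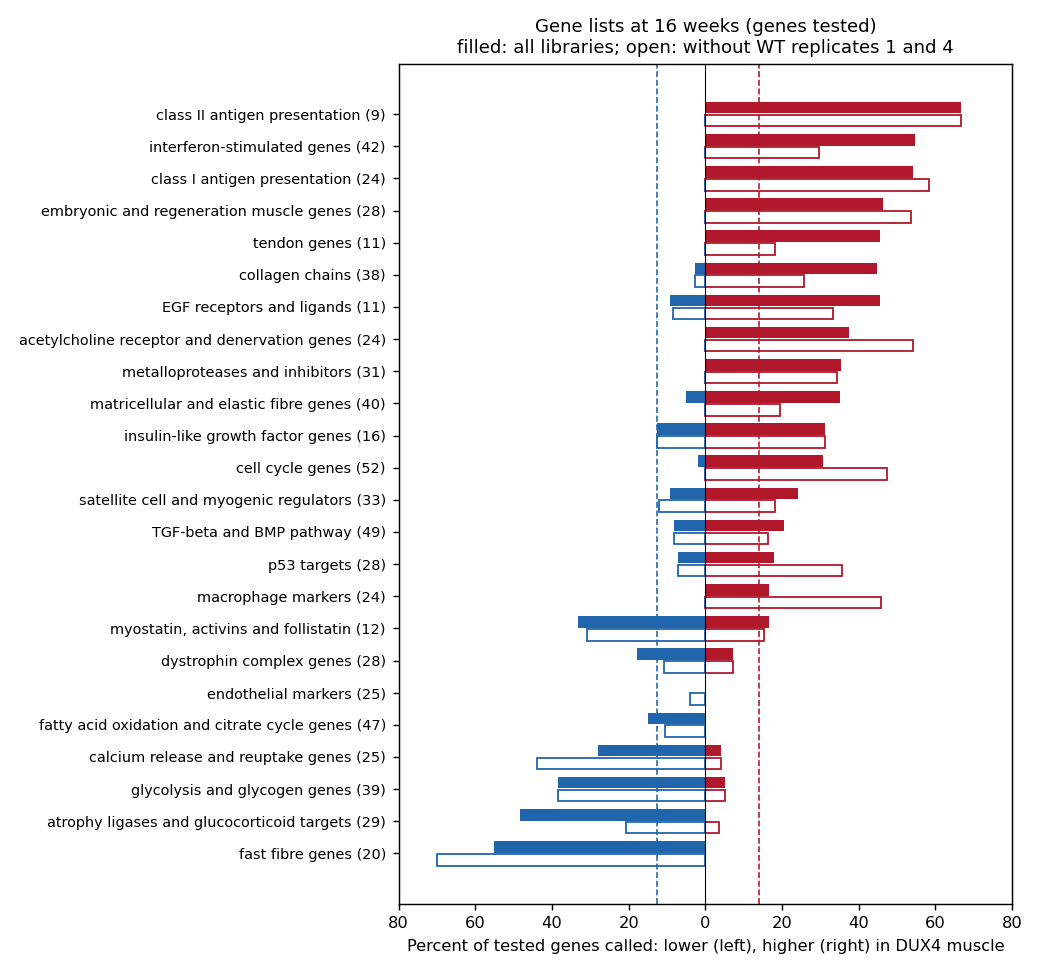
Percent of the tested members of 24 gene lists called higher (right) or lower (left) in DUX4 muscle, with all 8 libraries of 16 weeks (filled bars) and without WT replicates 1 and 4 (open bars). Dashed lines mark the 14.1% and 12.5% of all genes that rose and fell; with all libraries class II, interferon and class I lists lie farthest right and fast fibre genes farthest left. Without WT replicates 1 and 4, interferon genes (13 of 44) lie behind several lists, such as embryonic and regeneration genes (15 of 28) and cell cycle genes (27 of 57).

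Many collagen genes rose, and fewer of the genes for enzymes around them did. Of 38 tested collagen chain genes 17 rose and 1 fell (44.7% higher, against 14.1% of all genes), 10 and 1 without WT replicates 1 and 4, 11 rises without DUX4 replicate 1, and no fall without any 1 DUX4 library or without WT replicates 2 or 3. Col11a1, a minor fibril-forming chain of cartilage and developing muscle, stood at 9.84, 10.7, 8.07 and 10.3 CPM with DUX4 and 0.130, 1.32, 1.08 and 0.336 in WT muscle. The DUX4 libraries were close together and above every WT library (3.68 ± 0.59, adjusted p = 0.000361). Col5a2, which limits fibril thickness, was at 50.7, 33.4, 29.0 and 58.6 against 5.73, 12.7, 14.9 and 12.8 CPM (1.90 ± 0.33), and Col13a1, a transmembrane collagen of the neuromuscular junction, at 3.11, 2.29, 2.35 and 2.54 against 0.782, 0.544, 0.793 and 1.01 CPM (1.74 ± 0.27). Col3a1 rose with all libraries (1.62 ± 0.53, adjusted p = 0.0331) but lost its call without WT replicates 1 and 4 (0.121), and in 5 refits without 1 library. Of 30 genes for collagen folding, crosslinking and turnover 9 rose (30.0%; 7 without WT replicates 1 and 4, 5 without DUX4 replicate 4). They included Mrc2, a collagen uptake receptor (1.53 ± 0.29), and Ctsk, for the collagen-degrading protease cathepsin K, which stood at 6.41, 3.35, 17.5 and 34.1 CPM and was highest in the 2 DUX4 libraries that were also high in Mmp12.

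Of 40 matricellular and elastic fibre genes 14 rose and 2 fell (8 and 0 without WT replicates 1 and 4; no gene fell without DUX4 replicate 3). Thbs4, a thrombospondin of tendon and injured muscle, stood at 258, 113, 148 and 216 CPM against 17.7, 28.0, 21.3 and 18.7 (3.10 ± 0.30, adjusted p = 5.03e-06). Fbln7, a fibulin, was at 16.6, 9.15, 14.7 and 18.1 against 0.521, 1.94, 2.10 and 2.19 CPM, and Ltbp1, which holds latent TGF-beta in the matrix, at 55, 41.3, 78.5 and 51.9 against 11.7, 16.5, 19.8 and 13.3 CPM. Of 14 small leucine-rich proteoglycans 3 rose, including Bgn (1.47 ± 0.22), and 1 did without WT replicates 1 and 4 or without DUX4 replicate 4. Of 11 bone and cartilage genes 4 rose (3 without WT replicates 1 and 4). Col10a1, the collagen of hypertrophic cartilage, was at 1.98, 2.75, 2.48 and 1.81 against 0.195, 0.0777, 0 and 0.168 CPM (4.37 ± 0.83, adjusted p = 0.00121). Runx2, which directs bone formation, was at 3.11, 3.05, 3.37 and 2.88 against 1.17, 0.544, 0.623 and 1.01 CPM. Of 11 tendon genes 5 rose, 2 without WT replicates 1 and 4, without DUX4 replicates 1 or 4 or without WT replicates 1 or 4 alone. Tnc, the tenascin-C gene, was called in both fits, at 21.0, 6.25, 3.75 and 10.9 against 1.82, 2.02, 1.98 and 1.18 CPM and highest in DUX4 replicate 1.

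Of 31 metalloproteases and their inhibitors 11 rose and none fell (11 without WT replicates 1 and 4). Mmp17, for a membrane-anchored metalloprotease, stood at 20.2, 15.1, 24.6 and 20.3 CPM with DUX4 and 0.195, 0.621, 0.679 and 0.673 in WT muscle (5.24 ± 0.48, adjusted p = 4.99e-06), a wide gap between groups. Mmp3, for stromelysin 1, was at 4.52, 1.37, 3.62 and 4.91 against 0.326, 0.233, 0.170 and 0 CPM (4.10 ± 0.73), and Mmp14, which activates Mmp2 at the cell surface, rose from 5.95 ± 1.17 to 14.7 ± 3.16 CPM. The inhibitor gene Timp1 was called only without WT replicates 1 and 4 (3.86, adjusted p = 0.00372), with WT replicate 1 at 4.69 CPM and the other WT libraries at 0.227 to 0.505. Of 23 basement membrane genes 5 rose (21.7%, against 14.1% of all genes) and 2 fell (8.7%, against 12.5%). Without WT replicates 1 and 4 the counts were 3 and 2, and there were 3 rises without DUX4 replicate 1. The integrin gene Itgb1 rose from 213 ± 11.3 to 334 ± 45.3 CPM, while Itga7, its main partner in muscle fibres, fell from 121 ± 43.3 to 66.7 ± 5.96 CPM (−0.86 ± 0.22, adjusted p = 0.00879). Lama5, a laminin chain, fell by 1.19 on the log2 scale.

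Mstn, the myostatin gene, and the receptor genes Acvr1b and Acvr2b fell. Myostatin is a TGF-beta family hormone made by muscle fibres that restrains muscle growth through activin receptors, and follistatin binds and blocks it. Mstn stood at 3.86, 19.1, 6.54 and 5.08 CPM in DUX4 muscle and 187, 106, 106 and 62.8 in WT muscle, so that the highest DUX4 library, replicate 2, was below the lowest WT library. Fst, the follistatin gene, moved the other way, at 39.8, 16.3, 22.4 and 20.2 against 2.74, 6.14, 5.95 and 3.03 CPM (2.45 ± 0.41, adjusted p = 0.000481). The receptor genes Acvr1b and Acvr2b fell from 77.2 ± 31.4 to 28.6 ± 6.55 CPM and from 3.71 ± 0.914 to 1.99 ± 0.310 CPM. Wfikkn2, for a secreted inhibitor of myostatin, fell as well (5.98, 8.08, 8.26 and 7.28 against 18.9, 15.8, 17.8 and 17.2 CPM; −1.24 ± 0.19, adjusted p = 0.000227). Gdf11, the closest relative of myostatin, rose, at 27.5, 34.9, 48.0 and 37.8 against 0.977, 11.4, 14.7 and 6.39 CPM, with WT replicate 1 lowest. Of the 12 tested genes of this list 2 rose and 4 fell, the same counts as without WT replicates 1 and 4. The receptor gene Acvr2a and the activin gene Inhba were not called (log2 differences of −0.40 and 1.28).

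**Figure D4:**
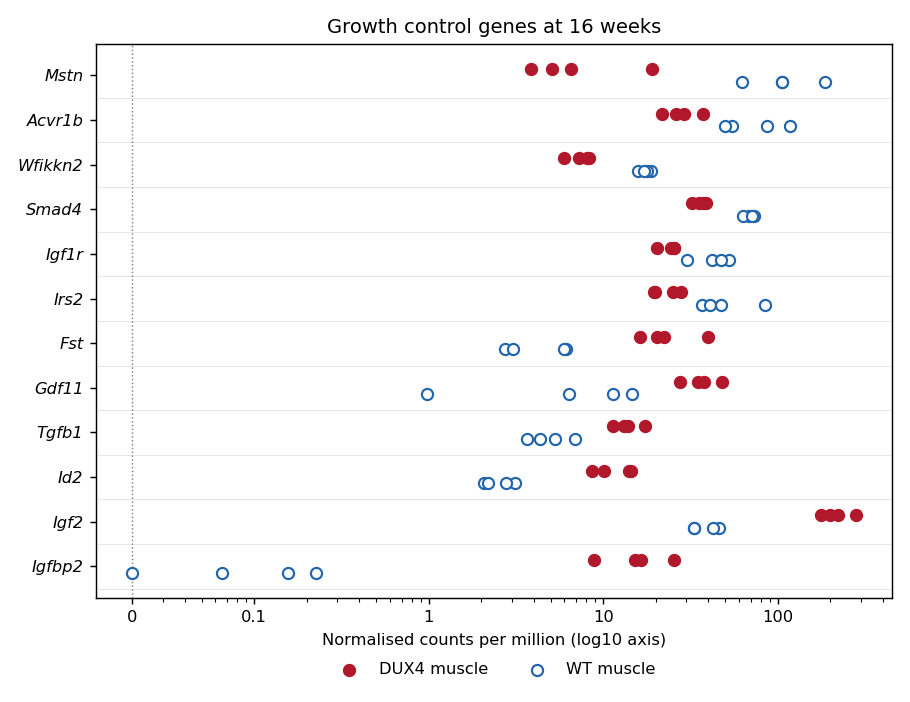
Normalised CPM (log10 axis, with 0 drawn at the left edge) of 12 genes of growth control in each 16-week library, DUX4 muscle as filled circles and WT muscle as open circles. Mstn, Acvr1b, Wfikkn2, Smad4, Igf1r and Irs2 were lower in every DUX4 library than in any WT library, and Fst, Gdf11, Tgfb1, Id2, Igf2 and Igfbp2 higher.

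In the wider TGF-beta and bone morphogenetic protein (BMP) pathway 10 of 49 tested genes rose and 4 fell. These were 20.4% and 8.16% of the list, against 14.1% and 12.5% of all genes. Without WT replicates 1 and 4 the counts were 8 and 4, and 2 fell without DUX4 replicates 1 or 3. The ligand gene Tgfb1 rose from 3.65, 4.35, 5.27 and 6.90 CPM in the WT libraries to 13.8, 11.4, 13.2 and 17.3 in the DUX4 libraries (1.49 ± 0.20, adjusted p = 8.22e-05). Id2, a repressor induced by BMP signals, rose by 2.21 ± 0.30. Smad4, the shared transcription factor of the pathway, fell from 68.9 ± 4.01 to 35.9 ± 2.75 CPM, and Bmpr1a, a BMP receptor, from 106 ± 21.7 to 69.6 ± 8.50. Tgfb2 and the receptor gene Tgfbr2 were not called (−0.25 and 0.07).

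Wnt pathway genes gave 8 rises and 2 falls among 38 tested (6 and 2 without WT replicates 1 and 4). With all libraries the shares were 21.05% and 5.26%, against 14.1% and 12.5% of all genes. Lgr5, the R-spondin receptor known as a stem cell marker of gut, stood at 15.0, 10.4, 24.1 and 17.3 CPM with DUX4 and 0.195, 0.155, 0 and 0.168 in WT muscle (7.05 ± 0.72, adjusted p = 7.22e-06). One of its ligands, Rspo2, rose with it, at 1.08, 1.83, 1.84 and 1.68 against 0, 0.233, 0.0566 and 0.168 CPM (3.87 ± 0.68, adjusted p = 0.000671). The receptor gene Fzd1 rose by 1.2 ± 0.25 and Fzd7, the Wnt7a receptor of satellite cells, fell by 1.04. Fzd7 was at 34.3 CPM in WT replicate 1, within the 31.1 to 41.9 CPM of DUX4 muscle.

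Of 16 insulin-like growth factor genes, which drive muscle growth, 5 rose and 2 fell (5 and 2 without WT replicates 1 and 4). The growth factor gene Igf2 stood at 282, 178, 223 and 199 CPM against 46.4, 42.7, 33.1 and 33.3 (2.50 ± 0.42, adjusted p = 0.000523), and Igfbp2, for a binding protein, at 25.6, 8.84, 15.3 and 16.5 against 0.0651, 0.155, 0.227 and 0 CPM (6.89 ± 1.0, adjusted p = 0.000163). The receptor gene Igf1r fell from 42.9 ± 9.45 to 23.9 ± 2.39 CPM, and Irs2, which couples the receptor to its kinases, from 52.4 ± 21.7 to 23.2 ± 4.16. Igf1 rose with all libraries (1.1 ± 0.34) but not without WT replicates 1 and 4 (0.64, adjusted p = 0.151), and lost its call in 3 refits without 1 library.

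Many genes of regenerating fibres rose, with counts that depended on WT replicate 1. Of 28 embryonic and regeneration genes 13 rose and none fell, 15 without WT replicates 1 and 4 and 18 without WT replicate 1. Without DUX4 replicate 1 or WT replicates 2 or 3 the count was 8, with 1 fall. Summed, the list held 9513 to 13198 CPM in DUX4 muscle and 4764 to 14825 in WT muscle, and WT replicate 1 was the WT library at the top of that range (4764 to 5927 CPM in the others). Myl4, the embryonic myosin light chain gene, was at 81, 38.9, 63.2 and 49.1 CPM against 13.0, 5.36, 3.91 and 5.21 (3.07 ± 0.69, adjusted p = 0.00416). Ankrd1, a stretch-responsive protein of the sarcomere, stood at 762, 319, 357 and 427 CPM with DUX4 and 161, 8.62, 10.5 and 18.3 in WT muscle (3.23 ± 0.80, and 5.60 without WT replicates 1 and 4). Nes, for nestin, an intermediate filament protein of young fibres, rose from 49.7 ± 6.92 to 129.7 ± 54.6 CPM. The embryonic and perinatal myosin genes Myh3 and Myh8 were called with all libraries (2.51 ± 0.82 and 2.01 ± 0.60) and lost their calls without WT replicates 1 and 4 (adjusted p = 0.0587 and 0.0596), and in 4 and 3 refits without 1 library.

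Among 33 satellite cell and myogenic regulators 8 rose and 3 fell, 24.2% and 9.09% against 14.1% and 12.5% of all genes. Without WT replicates 1 and 4 the counts were 6 and 4. There were 5 rises without DUX4 replicate 1 and 13 without WT replicate 1. Pax7, the transcription factor that defines satellite cells, did not pass the test (7.16, 6.56, 4.51 and 5.21 against 2.41, 5.67, 4.42 and 2.19 CPM, adjusted p = 0.0925), and neither did Myod1 (0.31, adjusted p = 0.563). Myog, which commits myoblasts to differentiate, stood at 109, 47.1, 55.4 and 56.0 against 34.1, 7.22, 6.79 and 7.07 CPM (2.26 ± 0.66, adjusted p = 0.0185), a call lost in 3 refits (up to 0.0589 without DUX4 replicate 1). The transcription factor gene Mef2d fell from 278 ± 21.8 to 185 ± 8.30 CPM, and Eya4, a transcription cofactor of muscle, from 42.7 ± 11.7 to 23.9 ± 4.53.

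Many genes that fibres express after loss of nerve contact rose. Of 24 acetylcholine receptor and denervation genes 9 rose (37.5%) and none fell, 13 without WT replicates 1 and 4, 14 without WT replicate 1 and 6 without DUX4 replicate 1; 1 fell without WT replicate 2. Chrng, the fetal receptor subunit, was at 34.7, 12.7, 17.5 and 16.5 CPM with DUX4 and 3.32, 0.699, 0.113 and 0.336 in WT muscle (4.09 ± 1.11, adjusted p = 0.0127). Chrnd, another subunit, stood at 34.9, 16.5, 18.7 and 22.5 against 6.58, 5.28, 4.64 and 3.53 CPM (2.19 ± 0.35). The nerve adhesion gene Nrcam rose by 4.70 ± 0.58, and Ret, the receptor for glial cell line-derived neurotrophic factor, was at 45.8, 35.7, 45.2 and 46.0 against 0.717, 2.95, 4.53 and 7.07 CPM (3.58 ± 0.49, adjusted p = 9.7e-05). Ache, which breaks down acetylcholine at the junction, rose from 27.9 ± 11.5 to 98.4 ± 23.8 CPM. Chrna1 and the transcription factor gene Runx1 were called only without WT replicates 1 and 4 (2.17 and 4.07), with WT replicate 1 at 203 and 52.5 CPM, against 26.8 to 30.0 and 2.25 to 3.06 in the other WT libraries. Musk, the organiser of the junction, was not called (−0.97).

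Of 52 cell cycle genes 16 rose and 1 fell (27 and 0 without WT replicates 1 and 4, 24 rises without WT replicate 1, and up to 3 falls without DUX4 replicate 2). Cenpf, for a kinetochore protein, was at 4.33, 7.47, 5.85 and 5.55 CPM against 0.456, 0.388, 0.340 and 0.336 (3.88 ± 0.43, adjusted p = 1.44e-05). The mitotic kinesin gene Kif4 was at 1.37, 2.29, 2.54 and 1.55 against 0.391, 0.0777, 0.113 and 0.168 CPM and the topoisomerase gene Top2a at 3.91, 3.35, 3.50 and 4.0 against 2.61, 0.388, 0.340 and 1.18 CPM (1.71 ± 0.49, and 3.32 without WT replicates 1 and 4). Ccnd3, the cyclin of differentiating muscle, rose from 13.1 ± 2.15 to 34.1 ± 2.71 CPM. Mki67, the usual marker of dividing cells, was not called (0.71, adjusted p = 0.458), and Mcm2, a part of the replication helicase, fell (−0.69 ± 0.18), a call lost without WT replicates 1 and 4 (adjusted p = 0.0630). Promoters of genes active in mitosis often carry the cell cycle genes homology region, searched here as TTTGAA on both strands and found in 8 of 14 promoters of the called members (57.1%), in 14.9% of the promoters of genes that rose and in 20.2% of all promoters. The stretches shown hold a match close to the start of Kif11, 19 to 14 bases before it, and 167 to 162 bases before that of Ccnb2, which has another match 5 to 10 bases after its start, outside the stretch, with the match in capitals (TTCAAA where it is on the other strand).
Kif11, chr19:37376338-37376381, plus strand: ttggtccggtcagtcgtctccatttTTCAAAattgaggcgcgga
Ccnb2, chr9:70421691-70421746, minus strand: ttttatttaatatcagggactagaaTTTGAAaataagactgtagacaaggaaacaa
Kif11, a kinesin of the mitotic spindle, was at 1.98, 0.915, 1.27 and 1.08 against 0.586, 0.388, 0.623 and 0.168 CPM, a call lost without WT replicates 1 and 4 (adjusted p = 0.0504), and the cyclin gene Ccnb2 at 1.27, 1.07, 1.40 and 1.68 against 0.391, 0.0777, 0 and 0.505 CPM (2.67 ± 0.71, and 5.02 without WT replicates 1 and 4).

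Many fast fibre genes fell, and no slow fibre gene did. Of 20 tested fast fibre genes 11 fell and none rose (14 fell without WT replicates 1 and 4), 55% of the list against 12.5% of all genes. Myh4, the myosin heavy chain of the fastest fibres, stood at 8254, 23871, 17572 and 13716 CPM in DUX4 muscle and 42820, 57464, 53935 and 52496 in WT muscle, lowest in DUX4 replicate 1. Actn3, the fast-fibre actinin, was at 1406, 3054, 2117 and 1673 against 10551, 9722, 6202 and 6755 CPM (−2.01 ± 0.34, adjusted p = 0.000504), and Mylk2, the myosin light chain kinase of muscle, fell from 932 ± 176 to 263 ± 81.6 CPM. The myosin genes of other fibre types were not called: Myh1 was at 7458, 7196, 8805 and 7804 against 8870, 3461, 4449 and 6122 CPM, Myh2 differed by −0.18 ± 0.36 and the slow Myh7 by −0.18 ± 0.99. None of 19 slow fibre genes fell, and 1 rose.

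Some genes that release and recover calcium fell, and most did not pass the test. Of 25 genes 7 fell (28.0%, against 12.5% of all genes) and 1 rose (11 and 1 without WT replicates 1 and 4, 11 falls without WT replicate 1). Ryr1, the calcium release channel, was at 1851, 2808, 1899 and 2469 CPM against 4481, 6673, 5878 and 6050 (−1.35 ± 0.23, adjusted p = 0.000509). Atp2a1, for the calcium pump of fast fibres, was at 10494, 18735, 17454 and 13524 against 40036, 35944, 32233 and 36816 CPM (−1.27 ± 0.23). Of the pump's small regulators, Mrln, for myoregulin, fell from 26.5 ± 6.54 to 11.5 ± 1.91 CPM. Sln, for sarcolipin, rose, at 837, 650.0, 811 and 688 against 72.0, 21.5, 21.7 and 6.06 CPM (4.61 ± 1.09, adjusted p = 0.00567). The slow pump gene Atp2a2 was not called (−0.07 ± 0.49).

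Of 28 genes of the dystrophin complex and of limb-girdle dystrophies 5 fell (17.9%, against 12.5% of all genes) and 2 rose (7.14%, against 14.1%). Without WT replicates 1 and 4 the counts were 3 and 2, and there were 2 falls without DUX4 replicate 4. Capn3, a muscle protease mutated in a limb-girdle dystrophy, fell from 175 ± 47.7 to 86.8 ± 15.8 CPM, with WT replicate 1 (104) inside the range of DUX4 muscle. Pomgnt1, which adds sugars to dystroglycan, rose (0.50 ± 0.11). Popdc3 rose from 47.9 ± 10.9 to 94.4 ± 12.9 CPM. Dmd, the dystrophin gene, was called lower with all libraries and without WT replicates 1 and 4 (−0.46 ± 0.15, adjusted p = 0.0300), but not in 4 refits without 1 library (up to 0.0876 without DUX4 replicate 3).

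Many genes of glycolysis and glycogen use fell. Of 39 tested 15 fell and 2 rose (15 and 2 without WT replicates 1 and 4), 38.5% falling against 12.5% of all genes. There were 20 falls without WT replicate 1 and 10 without DUX4 replicates 1 or 4. Pfkfb3 and Pfkfb4, which set the level of an activator of glycolysis, stood at 31.8, 63.9, 61.1 and 42.1 against 379, 858, 379.9 and 166 CPM and at 5.79, 9.76, 4.96 and 6.07 against 49.8, 12.9, 22.1 and 21.2 CPM. Fbp2, the gluconeogenic enzyme of muscle, was at 12.1, 20.6, 13.5 and 7.49 against 29.6, 69.0, 59.7 and 62.8 CPM (−2.06 ± 0.47, adjusted p = 0.00406). Pygm, for the enzyme that breaks down glycogen, fell from 6353 ± 1907 to 2897 ± 738 CPM. The 2 rises were isoforms of other tissues. Hk1, the hexokinase of brain and red blood cells, was at 44.1, 35.8, 39.8 and 45.7 CPM against 5.54, 6.76, 9.06 and 10.1 (2.41 ± 0.22, adjusted p = 4.99e-06), and Pfkp, the platelet phosphofructokinase, at 15.8, 14.3, 21.5 and 18.9 against 4.23, 4.50, 7.53 and 7.07 CPM (1.60 ± 0.31, adjusted p = 0.00144). Their muscle counterparts Hk2 and Pfkm were not called (−0.70 and −0.42).

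Few mitochondrial fuel genes passed the test. Of 47 genes of fatty acid oxidation and the citrate cycle 7 fell and none rose (5 without WT replicates 1 and 4, 11 without WT replicate 1 and 3 without DUX4 replicates 3 or 4 or WT replicate 4), 14.9% against 12.5% of all genes. Acacb, whose product restrains fatty acid import into mitochondria, fell from 499.6 ± 90.9 to 213 ± 39.8 CPM, and Pdk2, which shuts off pyruvate dehydrogenase, from 588 ± 43.8 to 306 ± 48.4. Of 54 nuclear-encoded respiratory chain genes 1 rose (0 without WT replicates 1 and 4) and none fell with all libraries, 2 fell without WT replicate 1. None of 13 mitochondrially encoded genes was called in edgeR, where 0 had an unadjusted p under 0.05, or in DESeq2, and limma voom called 2. The mitochondrial regulator gene Ppargc1a was not called (−0.42, adjusted p = 0.116).

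Many genes of muscle wasting and glucocorticoid action were lower in DUX4 muscle, a list that WT replicate 1 weighed on. Of 29 tested 14 fell and none rose with all libraries, 9 fell and 2 rose without WT replicate 1, and 6 fell and 1 rose without WT replicates 1 and 4. Trim63, the ubiquitin ligase MuRF1 of wasting muscle, stood at 144, 126, 152 and 144 CPM with DUX4 and 1206, 292, 240.4 and 206 in WT muscle, of which replicate 1 was the highest. It fell by 1.78 on the log2 scale with all libraries and by 0.92 without WT replicates 1 and 4 (adjusted p = 0.00752 and 0.0194). Sesn1, a sestrin that restrains growth signals, was at 29.2, 26.5, 27.8 and 27.5 against 124, 48.3, 47.7 and 56.2 CPM (−1.31, and −0.80 without those libraries). Klhl38 fell from 53.3 ± 14.3 to 16.7 ± 5.92 CPM, and the kinase gene Sgk1 from 166 ± 50.2 to 64.1 ± 8.83 CPM. Mt1, a metallothionein gene, was called lower (−2.99 ± 1.04), with WT replicate 1 at 840.4 CPM against 4.66 to 62.8 in the other WT libraries. Its log2 difference was −0.18 without WT replicates 1 and 4 (adjusted p = 0.906), and its call was lost in 5 refits without 1 library (up to 0.731 without WT replicate 1).

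Of 28 p53 targets, switched on by DNA damage and other stress, 5 rose (17.9%, against 14.1% of all genes) and 2 fell (7.14%, against 12.5%). The counts were 10 and 2 without WT replicates 1 and 4. There were 14 rises without WT replicate 1, and 1 fall without DUX4 replicates 1, 3 or 4 or WT replicate 2. Gdf15, a stress hormone, was at 2.02, 1.07, 1.21 and 1.98 CPM against 0.261, 0, 0.0566 and 0 (3.97 ± 0.71, adjusted p = 0.000796). Zmat3 rose from 16.9 ± 0.882 to 34.6 ± 5.98 CPM and Bax, which opens mitochondria during cell death, from 7.59 ± 2.29 to 17.1 ± 3.17 CPM. Cdkn1a, the p21 inhibitor of the cell cycle, stood at 445, 162, 244 and 227 against 394, 43.0, 22.4 and 22.7 CPM and was called only without WT replicates 1 and 4 (3.04, adjusted p = 0.0177). The ubiquitin ligase gene Mdm2 was not called (0.35).

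Of 32 genes of the integrated stress and unfolded protein responses 8 rose (25%) and 6 fell (18.8%), against 14.1% and 12.5% of all genes (10 and 3 without WT replicates 1 and 4, 12 rises without WT replicate 1). The rises included genes that feed amino acid and one-carbon metabolism: Phgdh, which starts serine synthesis, was at 13.2, 15.1, 29.6 and 13.8 against 1.30, 1.86, 1.36 and 2.19 CPM (3.45 ± 0.41, adjusted p = 2.48e-05), and Slc7a5, an importer of large amino acids, at 37.6, 25.8, 28.7 and 29.7 against 13.3, 2.80, 3.57 and 4.54 CPM (2.31 ± 0.45). Chac1, a glutathione-degrading enzyme of the same response, fell, at 2.21, 3.05, 5.08 and 1.46 against 49.0, 16.9, 9.17 and 35.8 CPM (−3.24 ± 0.59). Of 30 oxidative stress (NRF2) genes 3 rose (10%) and 7 fell (23.3%; 2 and 5 without WT replicates 1 and 4, 1 rise without DUX4 replicate 3 or WT replicates 2 or 4). Gstm2, a glutathione transferase, fell from 76.1 ± 33.1 to 23.5 ± 3.99 CPM, and Me1, which makes NADPH, from 290.4 ± 62.9 to 110.1 ± 22.9 CPM. Of 29 chaperone genes 3 rose and 3 fell, 10.3% each and below the shares of all genes (4 and 1 without WT replicates 1 and 4). Hspa2, Hspb8 and the transcription factor gene Hsf2 rose (1.72 ± 0.32, 1.13 ± 0.25 and 0.90 ± 0.15), while the stress-induced Hspa1a was not called (−0.38). Of 19 clock genes 6 fell and 1 rose (5 and 0 without WT replicates 1 and 4; the rise was lost in 6 refits without 1 library), the falls including the nuclear receptor gene Rora (−0.99 ± 0.21, and −0.65 without WT replicate 1). The core clock gene Arntl and the output gene Dbp were not called (0.33 and −0.39).

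Vessel and nerve cell markers were largely uncalled. None of 25 endothelial markers was called at 16 weeks with all libraries in edgeR, 1 fell without WT replicates 1 and 4 and 2 without WT replicate 1; in edgeR 1 had an unadjusted p under 0.05, DESeq2 called 0 and limma voom 6. They summed to 559.9 to 784 CPM in DUX4 muscle and 380.0 to 1172 in WT muscle, with WT replicate 1 at the bottom of the WT range. Of 17 mural cell genes 1 fell (2 without WT replicates 1 and 4 or without WT replicate 1), Abcc9, a potassium channel subunit of pericytes and fibres (351 ± 34.3 to 201 ± 18.5 CPM). Of 22 markers of the fibro-adipogenic cells between the fibres 3 rose and 1 fell, 13.6% and 4.5% against 14.1% and 12.5% of all genes. Without WT replicates 1 and 4 the counts were 1 and 0. There was 1 rise without DUX4 replicate 4, and no fall without DUX4 replicates 1, 2 or 3 or WT replicates 2 or 3. Pdgfra, the defining gene of these cells, was not called (22.5, 21.0, 21.5 and 35.3 against 8.53, 18.2, 19.2 and 16.3 CPM). The list summed to 1497 to 2341 CPM in DUX4 muscle and 490.5 to 1520 in WT muscle, again lowest in WT replicate 1 (490.5 CPM). Of its 22 tested markers 20 had a log2 difference above 0, with a median of 0.57 (0.42 without WT replicates 1 and 4). Reln, for reelin, a matrix protein of lymphatic vessels and nerve, was at 15.6, 7.78, 18.6 and 20.7 against 0.782, 4.66, 3.51 and 6.22 CPM (2.10 ± 0.43). Of 20 Schwann cell and myelin genes 2 rose, 10% against 14.1% of all genes. The count was 1 without WT replicates 1 and 4, 0 without DUX4 replicate 1 or WT replicate 3, and 3 without WT replicate 4.

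Fat cell genes gave 1 rise and 1 fall among 23 (1 and 0 without WT replicates 1 and 4). Though few were called, 19 of the 23 had a log2 difference above 0. The median was 1.51 (1.05 without WT replicates 1 and 4), against 0.0136 over all genes tested. Adipoq, the adiponectin gene, stood at 49.6, 34.9, 16.7 and 18.8 CPM with DUX4 and 2.87, 4.19, 9.29 and 1.85 in WT muscle without overlap, yet did not pass the test (2.66 ± 1.34, adjusted p = 0.153). Pparg, the transcription factor of fat cells, and Fabp5, a fatty acid carrier, rose (2.20 ± 0.59 and 1.51 ± 0.36), the 2 rises in the list of capillary fatty acid uptake. Of 12 angiotensin system genes 4 rose (2 without WT replicates 1 and 4, without WT replicates 1, 2 or 4 alone or without DUX4 replicate 3). Agtr2, the type 2 angiotensin receptor, was at 33.9, 47.4, 43.5 and 19.2 CPM against 0, 0.466, 0.113 and 0 (7.78 ± 0.82, adjusted p = 1.14e-05), while the genes for angiotensinogen and its converting enzyme, Agt and Ace, were not called (−0.65 and −0.35). Of 16 genes of limb and body position 4 rose and 1 fell, 25% and 6.25% against 14.1% and 12.5% of all genes. Without WT replicates 1 and 4 the counts were 2 and 2, with 2 falls without DUX4 replicate 2 or WT replicate 1. Among them were the hindlimb factor gene Tbx4, at 6.17, 7.47, 5.08 and 6.20 against 2.08, 2.02, 2.27 and 1.35 CPM, and Tbx18 (1.47 ± 0.37), with Tbx15, a factor of fast glycolytic fibres, falling by 0.83.

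The difference between the DUX4 effects at 16 and at 2 weeks was tested with an interaction term, and 46 of 15396 genes passed (0.299%), 29 with a more positive effect at 16 weeks and 17 with a more negative one. This count depended on single libraries: it was 8 without DUX4 replicate 3, 11 without replicate 4, 20 without replicate 1 and 45 without replicate 2. It was 18 and 27 without WT replicates 2 and 3, 53 and 57 without WT replicates 1 and 4 in turn, and 42 without both of these. DESeq2 gave 466 genes and limma voom 270, and none passed for a difference beyond 1.5-fold. Of listed genes 10 passed in edgeR. The class I gene B2m and Tbx4 passed in all 8 refits without 1 library and without WT replicates 1 and 4. B2m was at 84.6 ± 7.75 CPM with DUX4 and 93.7 ± 7.0 in WT muscle at 2 weeks (n = 5 each), against 106 ± 16.3 and 54.0 ± 5.27 CPM at 16 weeks (log2 difference of the effects 1.13 ± 0.15, adjusted p = 0.00844). The WT mean was lower at 16 weeks and the DUX4 mean was higher. Tbx4 was at 1.81 ± 0.413 against 2.27 ± 0.475 CPM at 2 weeks and at 6.23 ± 0.977 against 1.93 ± 0.402 at 16 weeks (1.99 ± 0.32, adjusted p = 0.0191). Adamts20, a matrix protease gene, passed in all 8 refits (2.19 ± 0.35, adjusted p = 0.0188) but not without WT replicates 1 and 4 (adjusted p = 0.0558). The other listed genes passed with all libraries and lost the call in refits without 1 library. H2-T23 (1.32 ± 0.24) lost it in 2 of 8 refits, without DUX4 replicates 3 and 4, and Ifit1 (2.82 ± 0.54) in 4. H2-D1 (0.91 ± 0.18), Thbs4 (1.90 ± 0.38) and Il1f9 (3.88 ± 0.76) lost it in 7, 7 and 7. Car3, a carbonic anhydrase of slow fibres, was at 765 ± 186 against 3083 ± 639 CPM at 2 weeks and was not called at 16 weeks (−0.16; difference 1.85 ± 0.38, lost in 7 of 8 refits). Csrnp1, an immediate early gene, had a more negative effect at 16 weeks (−2.38 ± 0.48, lost in 8). Outside the lists, Mss51, a mitochondrial protein of fast glycolytic fibres, had a more negative effect at 16 weeks (−2.28 ± 0.44, lost in 6 of 8 refits), and so did Vkorc1l1, of vitamin K recycling (−1.32 ± 0.24, lost in 5).

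WT muscle itself differed between the times in genes that mark fibre type and position. Myh7 was at 2598 ± 641 CPM in WT muscle at 16 weeks and 190.5 ± 205 at 2 weeks, Atp2a2 at 1683 ± 333 and 165 ± 122, and Mss51 at 286 ± 96.6 and 10.1 ± 4.85. The labels name no muscle, so time and the muscle taken cannot be told apart in this test. The 2 comparisons share no library.

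**Figure D5:**
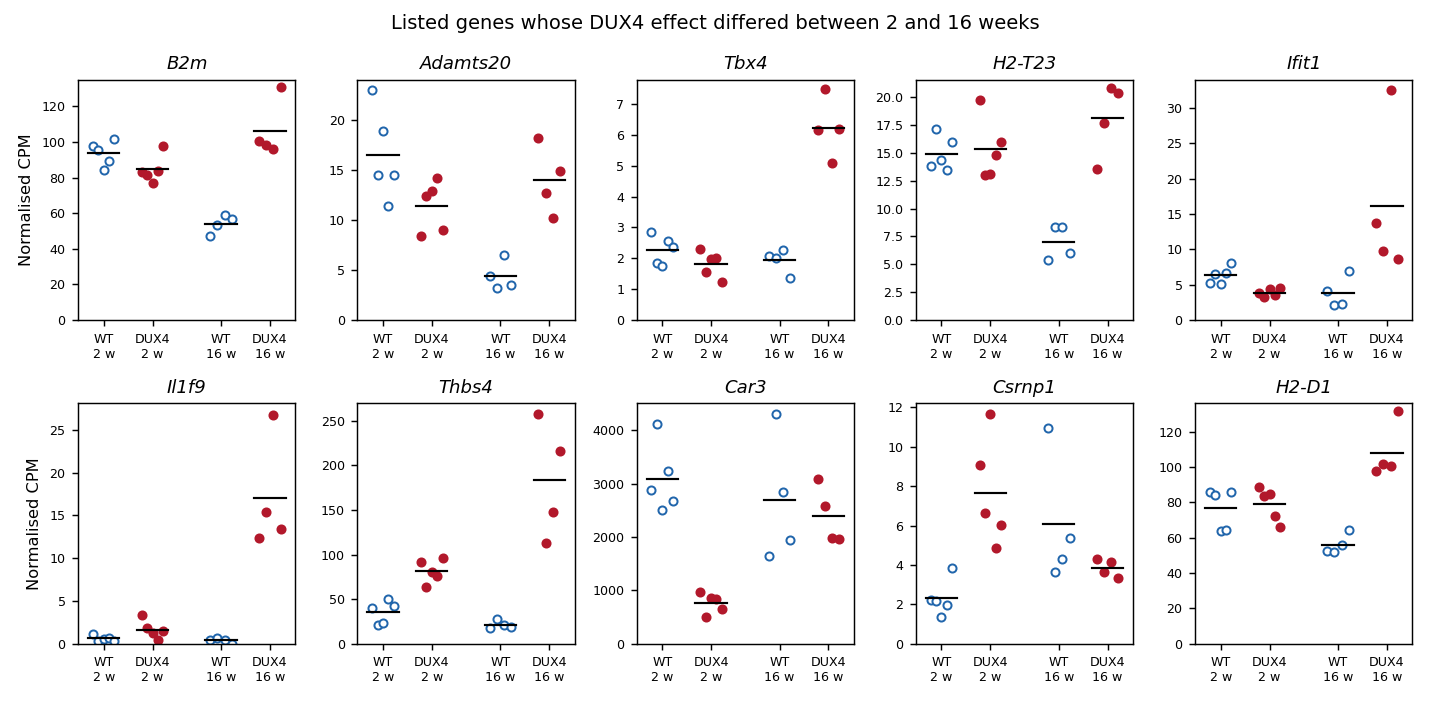
Normalised CPM of the 10 listed genes whose DUX4 effects differed between the times, in each whole-muscle library (points; WT open, DUX4 filled) at 2 and at 16 weeks, with group means as bars and a separate axis from 0 in each panel. B2m and Tbx4, called in all 8 refits without 1 library, separate the groups at 16 weeks and not at 2 weeks.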

How the data were processed

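Poly(A) RNA of whole muscle was sequenced in 18 libraries (8 at 16 weeks, 10 at 2 weeks), from 500 ng of total RNA each with 50-base paired-end reads, per the labels' protocols. The authors deposited estimated counts (expected counts) as 1 table per library, with 43035 genes each, made with Salmon 0.6.0 on mm10, per the submitters' processing notes; the annotation release is not given in the sources. Estimated counts divide reads among similar genes, which makes values of near-identical copies uncertain. Counts were rounded to whole numbers. Gene symbols came from GENCODE vM21 (42545 of 43035 matched). Samples were grouped by their labelled group.

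Genes were tested with edgeR 4.0.16 (robust quasi-likelihood, TMM scaling, filterByExpr with a minimum count of 10, 1 mean per group, Benjamini-Hochberg adjustment over all 15396 genes tested), fitted on all 18 whole-muscle libraries so that the groups share 1 estimate of the spread. On simulated counts of this comparison (15396 genes) the fit called 51 of 100 genes changed 2-fold and 88 of 100 changed 4-fold, with 1 false call. The range of total counts is given in the report; depth limits genes near 3 counts, the floor used for lower bounds, and counting intervals (95%, exact binomial on pooled counts) cover counting error only. DESeq2 1.42.0, limma 3.58.1, other scalings and filters, and leaving out libraries were tried as alternatives. Principal components were computed on log2 CPM.

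The 61 gene lists and the comparison itself were chosen with earlier results of these data known. The lists held 1458 written symbols, of which 15 were not matched, and the rest gave 1433 genes. Genes named were the 10 largest rises and falls called with and without WT replicates 1 and 4, without overlap and with at least 5 CPM in the higher group; up to 3 called members per direction of each list; the DUX4-responsive genes; the 10 highest switched-on genes; the 5 largest called changes per direction that lost the call without WT replicates 1 and 4; and list members whose effect differed between the times. The text gives a part of these (some are not reported here), and other members as values: the epithelial genes, Ifitm3, Cdcp1, Mss51, Vkorc1l1, P2rx3 and further list members were chosen after their values were seen. Promoter sequences are from RefSeq (GRCm38.p6, 27025 entries) and were matched by symbol.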

Additional observations from a re-analysis of the deposited data

Results flagged for a closer look

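Among 399 combinations of a named gene and a group of 4 libraries, 53 had 1 library far from the other 3. WT replicate 1 was that library in 35 of the 53, and each of the other 7 libraries in 1 to 4. The rule flags about 1 in 20 groups of normally distributed values, a rate that need not hold here. In Aadac and Areg, for example, the flagged library held the only WT count, and many genes were chosen after their values were seen. The part of WT replicate 1 in the group differences was not tested beyond the values without it given above.

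WT replicate 1 was far above the other WT libraries in wasting, stress and cell cycle genes, with Trim63 at 1206, Mt1 at 840.4, Hspb8 at 690.5, Cdkn1a at 394, Myc at 28.2, Gstm2 at 125, Sesn1 at 124, Mdm2 at 95.8, Slc7a5 at 13.3, Bax at 11, Mcm2 at 10.4 and Mki67 at 2.61 CPM. It was also far above them in muscle genes, with Chrna1 at 203, Itga7 at 186, Ankrd1 at 161, Eya4 at 60.1, Runx1 at 52.5, Myod1 at 44.9, Myog at 34.1 and Myl4 at 13.0 CPM. The same held for genes of macrophages and repair and for Lcn2 of neutrophils, with Lcn2 at 209, Gpnmb at 38, Hbegf at 27.9, Cd68 at 25.7, Mmp12 at 21.9, Itgax at 5.67 and Timp1 at 4.69 CPM. It was far below the other WT libraries in Pfkm (971 CPM), Capn3 (104), Acvr2b (2.35), Cx3cl1 (0.586), Fbln7 (0.521), Mmp17 (0.195), Epgn (0) and Inhba (0).

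In the other WT libraries the values far from the rest were Aadac in replicate 2 (0.0777 CPM), Areg and Krt8 in replicate 3 (0.0566 CPM each), and Agtrap (12.4 CPM) and H2-Aa (7.91 CPM) in replicate 4. In DUX4 muscle replicate 1 stood apart in Abcc9 (173 CPM), Myog (109) and Hbegf (16.6), and replicate 2 in Hk2 (286), Ifitm3 (79.6) and Ret (35.7). DUX4 replicate 3 stood apart in Hspa2 (31.7), Phgdh (29.6), Tbx18 (6.61) and Isg15 (3.94), and replicate 4 in H2-D1 (132), B2m (131) and Pdgfra (35.3).

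By the interaction test, the DUX4 effect was more positive at 16 than at 2 weeks in Cdcp1 (log2 difference of the effects 5.23), Il1f9 (3.88), Ifit1 (2.82), Adamts20 (2.19), Tbx4 (1.99), Thbs4 (1.90), Car3 (1.85), Ifitm3 (1.81), H2-T23 (1.32), B2m (1.13) and H2-D1 (0.91). It was more negative in Csrnp1 (−2.38), Mss51 (−2.28) and Vkorc1l1 (−1.32). The labels name no muscle for either time.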

How the results depend on the processing

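The threshold moved the size of the 16-week comparison most: for a change beyond 1.5-fold 884 genes rose and 175 fell. The tool and the libraries fitted moved it too. DESeq2 gave 2378 rises and 2317 falls, limma voom 3201 and 2794, and edgeR on only the 8 libraries of 16 weeks 1668 and 1433. Leaving out 1 library at a time gave 1748 to 2345 rises and 1401 to 2001 falls. The 16 against 2 week count moved most: 466 genes in DESeq2, 270 in limma voom, 19 without a low-count filter, 0 beyond 1.5-fold, and 8 to 57 when 1 library was left out; the cause was not tested. Of 202 genes named in the text, the RLE scaling changed no call, DESeq2 (which gave no adjusted p for Lcn2) changed 1 and limma voom 14, and leaving out both WT replicates 1 and 4 ended 13 calls and added 8. Of the 208 called genes that the naming rule picks, 2 turned direction, and no other did under any alternative. Lcn2 went from −7.35 to 0.85 without WT replicates 1 and 4 and to 0.53 in limma voom, and ranged from −7.77 to 1.17 without 1 library, positive only without WT replicate 1, and Myc from −1.52 to 0.011 without WT replicates 1 and 4; WT replicate 1 was far above the other libraries in both. No paired analysis was possible because the labels give no replicate numbers and nothing ties a DUX4 library to a WT library. Depth limits transcripts near 3 counts, most of all in DUX4 replicate 2 and WT replicate 4.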

Other observations

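Smaller lists gave few calls, most of which did not hold without single libraries. Of 7 dendritic cell markers 3 rose (1 without WT replicates 1 and 4), among them Itgax, for an integrin of dendritic cells and macrophages, at 0.942, 0.458, 17.5 and 42.1 CPM with DUX4 and 5.67, 0.233, 0.510 and 0.168 in WT muscle, high in DUX4 replicates 3 and 4. Its adjusted p was 0.0483, and the call was lost in 5 of 8 refits without 1 library. Of 25 immediate early genes, which cells transcribe within minutes of a stimulus, 3 fell, 12% against 12.5% of all genes. Without WT replicates 1 and 4, 4 fell and 1 rose, and 0 fell without DUX4 replicate 1. Nr4a1, a nuclear receptor of that group, stood at 34.2, 83.6, 61.3 and 52.0 against 61.2, 135, 205 and 161 CPM (−1.29 ± 0.39, adjusted p = 0.0213) and was called without WT replicates 1 and 4, but not in 3 refits. Myc, a growth-promoting transcription factor gene of the same list, was at 4.19, 2.90, 4.32 and 3.10 against 28.2, 4.04, 3.17 and 6.39 CPM (−1.52 ± 0.52, adjusted p = 0.0383), with WT replicate 1 far above the rest, and the call was lost in 5 refits.

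Of 22 vessel growth factor and receptor genes 1 rose and 1 fell, and 0 without WT replicates 1 and 4. Angpt1, for the vessel-stabilising angiopoietin 1, was at 34.1, 53.7, 50.8 and 44.1 against 11, 30.8, 29.1 and 19.9 CPM (1.0 ± 0.34, adjusted p = 0.0360), a call lost in 5 refits. Of 9 lymphatic genes 1 rose and 1 fell (2 and 1 without WT replicates 1 and 4). Of 14 genes of capillary fatty acid uptake 2 rose (14.3%, against 14.1% of all genes), Pparg and Fabp5 named above. Of 27 Hox genes, which mark position along the body and limb, 2 fell and 0 did without WT replicates 1 and 4: Hoxa13 was at 1.65, 2.59, 0.635 and 1.77 against 7.10, 5.44, 7.36 and 6.06 CPM (−2.0 ± 0.72, adjusted p = 0.0477) and Hoxd10 at 0.659, 2.13, 2.10 and 1.59 against 6.12, 4.35, 4.36 and 2.52 CPM (−1.45 ± 0.51), each lost in 7 of 8 refits. Of 11 interferon-inducible PYHIN genes, sensors of DNA, 1 rose with all libraries (9.09%, against 14.1% of all genes) and without WT replicates 1 and 4. Its call was lost in 5 of 8 refits without 1 library (adjusted p in edgeR up to 0.0938 without WT replicate 2). All 11 had a log2 difference above 0, with a median of 0.97. None of 3 sex-linked genes was called in edgeR with all libraries, where 1 had an unadjusted p under 0.05. DESeq2 called 0 and limma voom 1. Without WT replicates 1 and 4, or without WT replicate 4 alone, 1 rose and 1 fell. Without DUX4 replicate 2, 1 rose. In the neutrophil list 1 of 4 genes fell, Lcn2, for the iron carrier-binding protein lipocalin 2. It was at 0.471, 0.152, 0.445 and 0.129 against 209, 0.233, 0.113 and 0 CPM, so that only WT replicate 1 was high, and without that library it was not called and lay on the other side of 0.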
